A study of Mus musculus with 178 samples.

Results

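The genes described here are 9 genes that mark mature B cells: Cd79a, Cd79b, Cd22, Blk, Ms4a1, Cr2, Fcer2a, Fcmr and Pax5. They were taken by symbol from the table of gene counts, where each symbol has 1 row, and they are 9 of 55450 genes in that table. All 9 passed the filter on low counts in every comparison. The libraries were made from polyadenylated RNA of whole blood from 45 C57BL/6J mice aged 6 to 8 weeks, of both sexes, that carried tumors of 4MOSC1 cells, a mouse oral squamous carcinoma line, in the tongue or the buccal mucosa. All mice received the PD-1-blocking antibody RMP1-14 by intraperitoneal injection, and there was no group without it. Blood was taken on Days 4, 9, 17 and 24, and the antibody was started after the Day 4 bleed. Mice whose tumors responded (responders) gave 15, 15, 14 and 15 libraries on these days, and non-responders gave 29, 30, 30 and 30, so that 178 libraries were compared.

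The B cell receptor is a surface immunoglobulin that cannot signal alone. It sits on a pair of chains, encoded by Cd79a and Cd79b, whose tails are phosphorylated by kinases of the Src family such as Blk, and the signal is damped by Cd22, a sialic acid-binding receptor that recruits phosphatases, and strengthened by complement receptor 2 (Cr2, CD21). Ms4a1 encodes CD20, Fcer2a encodes CD23, the low-affinity receptor for IgE on follicular B cells, and Fcmr encodes the receptor for the Fc part of IgM. Pax5 is the transcription factor that commits cells to the B lineage and holds them there, and plasma cells turn it off. In blood, most cells with these transcripts are recirculating follicular B cells.

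Whole blood libraries are dominated by red cell RNA, and here haemoglobin genes held 68.7% to 88.0% of the counts of a library. Total counts ran from 26058958 to 82208665, and the counts outside haemoglobin from 4535330 to 22174668. The 9 genes were well covered, with a median count per library between 1212 (Blk) and 5474 (Cd79a). In bulk RNA a smaller number of B cells and less RNA per B cell cannot be told apart. The mouse numbers in the labels form a 4-digit series (11 responders, 7 non-responders) and a 3-digit series (4 and 23), so that results are also given within each series, and nothing beyond the mouse number says that libraries came from separate preparations. The library D24_7224, named here by day and mouse number as in its label, is from a non-responder and stood apart. Its scaling factor was 0.0882 where the next lowest of any library was 0.274, it had a count in 12630 genes where the next lowest had 14414, and it was the lowest of the 30 Day 24 libraries of non-responders in each of the 9 genes, so Day 24 results are given with and without it. The library D17_7203 is labelled as a responder while the other labels of that mouse say non-responder, and it was counted with the non-responders.

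The stretches of sequence just upstream of the gene start are shown for 4 of the genes, because Cd79a and Fcmr moved closely together in these libraries whereas Pax5 and Cr2 were the genes that correlated least with Cd79a over all days together. The sequences are from RefSeq on GRCm38.p6, on the strand of the gene, and are cut to the bases upstream of both the RefSeq and the GENCODE start. Capitals mark the letters CAGGTG (a form of the E-box) or GGAAGT (an ETS-type core) on either strand.
Cd79a, chr7:24897247-24897380, plus strand: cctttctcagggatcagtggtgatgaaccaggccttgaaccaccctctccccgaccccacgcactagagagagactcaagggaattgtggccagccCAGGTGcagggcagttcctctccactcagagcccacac
Fcmr, chr1:130865527-130865668, plus strand: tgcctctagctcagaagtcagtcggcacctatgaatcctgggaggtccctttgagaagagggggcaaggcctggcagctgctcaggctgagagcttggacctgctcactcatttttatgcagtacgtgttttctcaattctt
Pax5, chr4:44710695-44710944, minus strand: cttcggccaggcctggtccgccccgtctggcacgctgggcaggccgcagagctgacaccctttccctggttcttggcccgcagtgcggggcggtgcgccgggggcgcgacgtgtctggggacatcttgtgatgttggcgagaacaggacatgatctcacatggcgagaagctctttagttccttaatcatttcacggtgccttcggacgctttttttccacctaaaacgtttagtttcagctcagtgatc
Cr2, chr1:195176720-195176969, minus strand: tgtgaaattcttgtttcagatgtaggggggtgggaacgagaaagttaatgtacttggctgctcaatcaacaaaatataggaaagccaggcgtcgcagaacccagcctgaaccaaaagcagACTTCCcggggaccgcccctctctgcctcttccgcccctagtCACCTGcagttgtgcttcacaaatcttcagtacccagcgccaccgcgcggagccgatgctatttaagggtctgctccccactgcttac

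Promoter sequence was found for 6 of the 9 genes (also for Cd22 and Fcer2a). In the 250 bases before the RefSeq start, CAGGTG was present in 3 of the 6 (Cd79a, Cd22 and Cr2) and in 17.2% of 32851 mouse promoters of the same length. GGAAGT was present in 3 of 6 (Cd79a, Cr2 and Fcer2a) and in 19.7% of all. The EBF-type letters CCCNNGGG were found in 1 of 6 (Cd22) and in 11.8% of all, and the RUNX-type letters TGTGGT in 1 of 6 (Fcer2a) and in 14.0%. The octamer ATGCAAAT was in none of the 6 and in 1.60% of all. All 5 motifs were searched on both strands. Neither Fcmr nor Pax5 holds any of the 5 motifs in this window. The window of Cd22 lies inside the GENCODE gene, since its RefSeq start (30879028) is downstream of the GENCODE start (30880342, minus strand). The 9 genes lie apart in the genome (GRCm38, GENCODE M21). Cd79a (24897381 to 24902197, plus strand) and Cd22 (30865402 to 30880342, minus strand) are both on chromosome 7, Fcmr (130865669 to 130880791, plus strand) and Cr2 (195136811 to 195176716, minus strand) are both on chromosome 1, and Cd79b (106311341 to 106314762), Ms4a1 (11249675 to 11266241), Fcer2a (3681737 to 3694175), Pax5 (44524757 to 44710487) and Blk (63372836 to 63417037) are on the minus strand of chromosomes 11, 19, 8, 4 and 14. The counts are of whole genes, over all exons.

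Per transcript length, in TPM, the order of the genes was Cd79a, Cd79b, Fcmr, Cd22, Ms4a1, Fcer2a, Blk, Pax5 and Cr2. Over the 178 libraries, Cd79a was at 39.8 ± 19.7 TPM (SD) and Cr2 at 3.24 ± 1.60. Within a library, Cd79b was above Fcmr in 176 of 178 libraries, Fcmr above Cd22 in 178, and Fcer2a above Blk in 178. Cd79a and Cd79b, the chains that pair in the receptor, were closest, with a mean log2 ratio of 0.09 ± 0.10 (SD) and Cd79a above Cd79b in 145 libraries. Blk was above Pax5 in 160 libraries, with a mean log2 ratio of 0.25 ± 0.20 (SD), so these neighbours were also near each other relative to the spread of their ratio.

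Levels below are TMM-scaled log2 CPM (log2 of a gene's share of the counts of its library, after scaling to the bulk of the genes), and changes are log2 fold changes with their standard error from edgeR's quasi-likelihood test, with p-values adjusted over all genes tested by the Benjamini-Hochberg method. A gene is said to have changed at an adjusted p of at most 0.05.

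The first comparison asked how the 9 genes changed between the bleed before treatment on Day 4 and the early on-treatment bleed on Day 9. They fell. In non-responders 9 of 9 were lower on Day 9 and in responders 6 of 9 were, where 27.5% of 13009 genes and 14.2% of 12561 genes were called lower. The median change of the 9 was -0.42 in non-responders and -0.47 in responders, beside -0.01 and 0.01 over all genes tested. The largest falls were those of Fcmr, Cd79a and Cd79b, by a factor of 1.48 to 1.73, and the smallest those of Pax5, Blk, Cd22 and Cr2.

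The receptor chains fell in nearly every mouse. Cd79a in non-responders ran from 6.68 to 7.93 on Day 4 (median 7.03) and from 6.06 to 6.79 on Day 9 (median 6.51). In responders it ran from 6.59 to 7.69 (median 7.00) and from 6.19 to 6.75 (median 6.49). The ranges of the 2 days overlapped by little, and Cd79a was lower on Day 9 than on Day 4 in 29 of 29 non-responders and in 15 of 15 responders. The log2 fold change was -0.61 ± 0.07 (SE, edgeR adjusted p = 2.26e-14) in non-responders and -0.66 ± 0.10 (SE, edgeR adjusted p = 1.15e-06) in responders. Cd79b, its partner, was lower in 28 of 29 non-responders and 15 of 15 responders, with log2 fold changes of -0.56 ± 0.06 and -0.62 ± 0.09 (SE).

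Of the surface markers, Fcmr fell most. In non-responders it went from a median of 6.00 (5.63 to 7.06) to 5.51 (5.06 to 5.80), and in responders from 5.99 (5.59 to 6.80) to 5.43 (5.14 to 5.71). Every one of the 29 non-responders and 15 responders with both bleeds was lower on Day 9. The log2 fold changes were -0.67 ± 0.08 (SE, edgeR adjusted p = 1.83e-13) and -0.79 ± 0.12 (SE, edgeR adjusted p = 2.64e-06). Ms4a1 (CD20) fell in 28 of 29 non-responders (-0.42 ± 0.05, SE) and in 14 of 15 responders (-0.50 ± 0.09, SE), and Fcer2a (CD23) fell in 28 of 29 and 14 of 15 mice, by the same log2 fold change of -0.47 in both groups.

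The inhibitory receptor Cd22, the kinase Blk, the complement receptor Cr2 and Pax5 changed less. Cd22 went from a median of 6.31 (5.97 to 6.57) to 6.13 (5.82 to 6.36) in non-responders and from 6.18 (5.80 to 6.37) to 6.00 (5.77 to 6.19) in responders, so that the ranges of the 2 days overlapped widely. Its log2 fold changes of -0.19 ± 0.05 (SE, edgeR adjusted p = 0.00125) and -0.17 ± 0.06 (SE, edgeR adjusted p = 0.0392) both passed. Blk and Cr2 fell in non-responders (-0.16 ± 0.05 and -0.24 ± 0.05, SE), whereas in responders Blk was at -0.15 ± 0.07 (SE, edgeR adjusted p = 0.126) and Cr2 at -0.18 ± 0.07 (SE, edgeR adjusted p = 0.0539). Pax5 fell by 0.17 on the log2 scale in non-responders and was at -0.04 ± 0.08 (SE, edgeR adjusted p = 0.768) in responders, of which 8 of 15 were lower and 7 higher on Day 9.

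**Figure D1:**
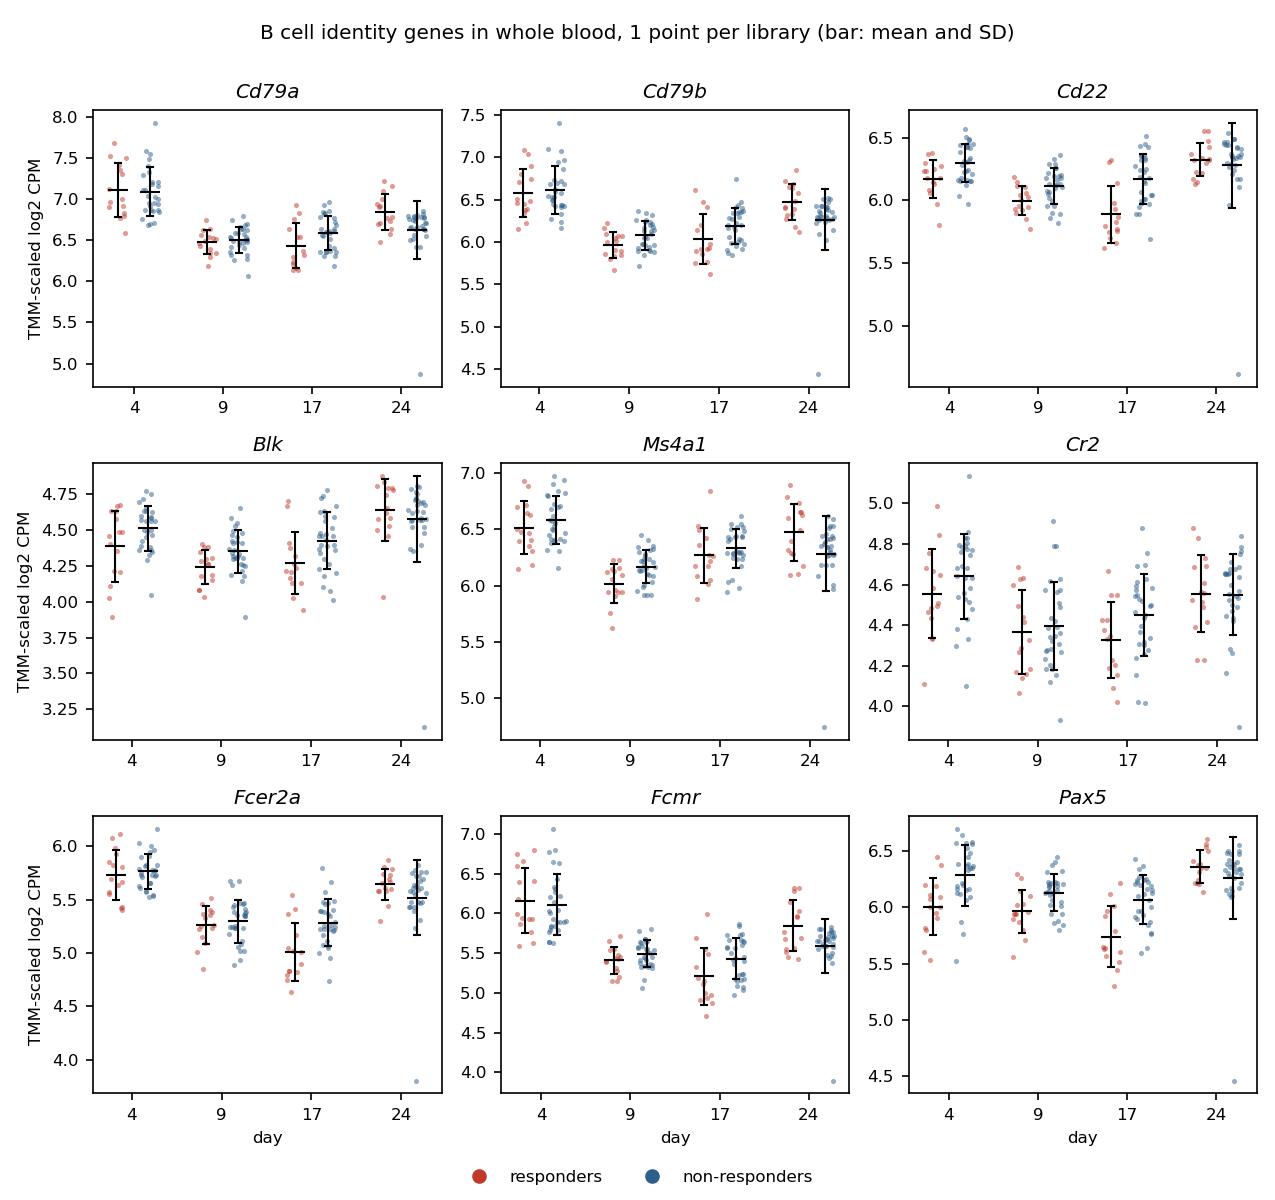
TMM-scaled log2 CPM of the 9 genes (vertical axis) by day (horizontal axis) in responders and non-responders, 1 point per library with the mean and SD of each group as bars. Cd79a, Cd79b, Fcmr, Ms4a1 and Fcer2a step down from Day 4 to Day 9 in both groups, and the single low point on Day 24 in every panel is the library D24_7224.

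The falls were also compared within each mouse by the ratio of 2 genes of the same library, in which the scaling of the libraries cancels. Cd79a fell more than Cd22 in 28 of 29 non-responders and 13 of 15 responders, by a mean of 0.40 ± 0.36 and 0.46 ± 0.39 (SD) on the log2 scale. It fell more than Pax5 in 25 of 29 and 13 of 15 mice and more than Blk in 27 of 29 and 14 of 15. Exon length ran in the same direction in part. Cd79b, Cd79a and Fcmr have the shortest exon sequence of the 9 (1431, 1457 and 1736 bases) and Pax5 and Cr2 the longest (8853 and 8112). Over all genes, the median change on Day 9 was -0.06 in non-responders and -0.08 in responders among the genes in the lowest quartile of exon length, and 0.01 and 0.06 among those in the highest. Ms4a1, with 6187 bases, fell more than Blk, with 2698. The part of length in the uneven falls was not tested.

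The change from Day 4 to Day 9 did not differ detectably between the response groups. The test of the difference called 0 of the 9 genes and 0% of 13688 genes. At an unadjusted p below 0.05 it found 0 of the 9 and 719 of all genes, and DESeq2 also called 0. The differences of the changes (responders minus non-responders) ran from -0.13 ± 0.14 (SE) for Fcmr to 0.12 ± 0.10 (SE) for Pax5. Within the number series the falls were not equally firm. Among mice with 4-digit numbers 7 of the 9 fell in responders but 0 passed in the 7 non-responders, where Cd79a was at -0.38 and Fcmr at -0.35, and among mice with 3-digit numbers 9 fell in non-responders and 4 in the 4 responders. In the same fits 9.3% and 6.21% of all genes were called lower in responders and non-responders with 4-digit numbers, and 28.7% and 3.32% in non-responders and responders with 3-digit numbers.

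The fall was shared with T cells and ran against myeloid genes. All 5 T cell markers fell in both groups, with medians of -0.61 and -0.55 in non-responders and responders, and Cd3e was at -0.55 ± 0.04 (SE) in non-responders and Cd4, the helper T cell co-receptor, at -0.71 ± 0.10 (SE) in responders. All 6 monocyte markers rose in non-responders and 4 of 6 in responders, where 23.3% and 13.5% of all genes were called higher, among them Ccr2, the receptor that brings monocytes out of the marrow, by 1.55 ± 0.10 and 1.24 ± 0.17 (SE). Of 8 neutrophil markers 7 rose in non-responders and 4 in responders. The summed level of the monocyte list went from a median of 126 CPM (82.8 to 169) to 254 (174 to 439) in non-responders and from 154 (88.3 to 234) to 242 (164 to 392.2) in responders. That of the 5 T cell markers went from 66.9 (56.5 to 98.3) to 48.1 (36.6 to 56.3) and from 66.6 (55.7 to 99.1) to 48.3 (34.3 to 57.1). Because each level is a share of all counts scaled to the bulk of the genes, the part of the myeloid genes in the fall of the B cell genes was not tested.

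Other B cell genes moved in the same direction less uniformly. Of 17 genes of B cell receptor signalling 12 fell and 1 rose in non-responders and 8 fell in responders, with medians of -0.13 and -0.15. Ighm, the heavy chain of IgM, fell by 0.48 and 0.55 on the log2 scale. Of 12 B lineage transcription factors 10 and 6 fell, among them Foxo1 (-0.42 ± 0.04 and -0.44 ± 0.07, SE) and Spib (-0.43 ± 0.06 and -0.40 ± 0.08, SE). Of 9 genes of survival, costimulation and homing 6 and 5 fell, among them Cxcr5, the follicle homing receptor, at -0.49 ± 0.06 and -0.53 ± 0.09 (SE). Of 9 inhibitory receptors and phosphatases 5 and 4 fell while 1 rose in each group. That was Fcgr2b, which myeloid cells also carry, at 0.46 ± 0.05 (SE) in non-responders, and Cd5, which T cells also carry, was at -0.51 ± 0.05 and -0.50 ± 0.07 (SE).

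Markers of other B cell stages gave smaller counts. All 5 marginal zone markers fell in non-responders and 3 in responders, with Dtx1 at -0.47 ± 0.05 and -0.47 ± 0.09 (SE). Of 4 transitional markers 2 rose and 1 fell in non-responders, and 1 rose and 1 fell in responders. Vpreb3 fell (-0.76 ± 0.08 and -0.84 ± 0.16, SE) and Cd93, which myeloid cells also express, rose in both groups (0.63 ± 0.07 and 0.59 ± 0.12, SE). Of the 5 plasma cell markers tested 3 rose and 1 fell in both groups, with Xbp1 at 0.64 ± 0.08 and 0.34 ± 0.08 (SE) and Prdm1, the repressor that drives plasma cell fate, at 0.78 ± 0.09 and 0.60 ± 0.15 (SE). Neither of these is confined to plasma cells. Of 3 germinal centre markers tested 3 and 2 rose, with S1pr2 at 0.68 ± 0.09 and 0.46 ± 0.12 (SE) and Bcl6 at 0.26 ± 0.04 and 0.20 ± 0.07 (SE). Of 3 B-1 cell markers 2 fell and 1 rose in non-responders and 1 fell in responders. Of the other cell types, 2 of 5 NK cell markers fell in each group, 4 and 1 of 5 platelet markers fell, 1 and 0 of 6 red cell markers rose, and of the plasmacytoid dendritic cell markers tested 2 of 4 rose and 1 fell in non-responders and 1 of 3 fell in responders.

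On Day 17 the genes were still low. In each group 8 of 9 were below Day 4, all but Blk, where 24.2% of genes in non-responders and 13.4% in responders were called lower. In non-responders Fcmr was at -0.72 ± 0.08 (SE, edgeR adjusted p = 3.91e-14), Cd79a at -0.53 ± 0.07 and Fcer2a at -0.49 ± 0.06 (SE). In responders Fcmr was at -0.97 ± 0.13 (SE, edgeR adjusted p = 3.07e-07), Fcer2a at -0.72 ± 0.08 (SE, edgeR adjusted p = 3.12e-08) and Cd79a at -0.69 ± 0.10 (SE). Fcer2a on Day 17 lay at 4.63 to 5.55 in responders, with a median of 4.95, and in non-responders at 4.73 to 5.80, with a median of 5.26, and it was below its Day 4 level in 14 of 14 responders and 28 of 29 non-responders. Among the responders with 3-digit numbers alone, which are 4 mice, 0 of the 9 and 0 of all 12675 genes passed. There Fcmr was at -0.96, Cd79a at -0.62 and Cd79b at -0.45, and Cd22, Cr2, Pax5 and Blk lay above Day 4, at 0.037, 0.084, 0.17 and 0.19. Other cell types also differed from Day 4. All 5 T cell markers were lower in non-responders and 4 in responders (medians -0.38 and -0.25), and 4 and 2 of 5 NK cell markers were lower. Of 8 neutrophil markers 6 and 5 were higher and 1 was lower in each group (medians 0.75 and 0.55). Of 6 monocyte markers 4 were higher in non-responders, and 1 was higher and 1 lower in responders (medians 0.27 and -0.06). In either direction, 52.4% of all genes in non-responders and 36.8% in responders had an unadjusted p below 0.05. The summed level of the T cell markers had a median of 55.2 CPM (41.3 to 71.8) in non-responders and 57.8 (49.7 to 65.2) in responders. The part of these cell types in the Day 17 levels was not tested.

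Between Day 9 and Day 17 Ms4a1 rose in non-responders by 0.16 ± 0.05 (SE, edgeR adjusted p = 0.0210), higher in 26 of 30 mice, as 1 of the 9, where 10.3% of genes were called higher. In responders 0 of the 9 passed in either direction between these days, where 1.85% of genes were called higher and 3.68% lower. Ms4a1 was at 0.25 ± 0.09 (SE, edgeR adjusted p = 0.0730) and higher in 13 of 14 mice, and it passed with the mouse as a replicate block, that is, with each mouse compared with itself (0.25, edgeR adjusted p = 0.0496). At an unadjusted p below 0.05, 3 of the 9 passed beside 21.1% of all genes, and DESeq2 called 2, Ms4a1 higher and Fcer2a lower, and 825 genes in all. The number series differed between these days. In responders mean Pax5 went from 5.97 to 5.61 with 4-digit numbers and from 5.96 to 6.08 with 3-digit numbers. Cd79a went from 6.47 to 6.33 and from 6.48 to 6.69. In non-responders Cd79a went from 6.48 to 6.38 and from 6.51 to 6.65, and Ms4a1 from 6.22 to 6.25 and from 6.15 to 6.35. Ms4a1 of responders rose in both series. The part of the series was not tested.

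The test of the difference of the changes from Day 4 to Day 17 between the groups called 0 of the 9 and 0.351% of all genes. At an unadjusted p below 0.05 it found 1 of the 9 beside 10.2% of all genes. That was Fcer2a, whose change was lower in responders by a log2 difference of -0.25 ± 0.10 (SE, edgeR adjusted p = 0.391), and DESeq2 called 0 of the 9. Mean Fcer2a with 4-digit numbers went from 5.72 on Day 4 to 4.86 on Day 17 in responders and from 5.66 to 5.03 in non-responders. With 3-digit numbers it went from 5.75 to 5.37 and from 5.80 to 5.36.

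On Day 24 the genes lay on both sides of their Day 4 level. In non-responders Cd79a, Cd79b, Fcer2a, Fcmr and Ms4a1 were still below Day 4 (5 of 9, where 24.8% of genes were called lower), by 0.23 (Fcer2a) to 0.56 (Fcmr) on the log2 scale, and the same 5 genes were called lower without the library D24_7224, where Blk was called higher. None of the 9 passed among the non-responders with 4-digit numbers alone, a set that includes D24_7224. In responders Cd79a (-0.30 ± 0.10, SE, edgeR adjusted p = 0.0229) and Fcmr (-0.35 ± 0.12, SE, edgeR adjusted p = 0.0362) were below Day 4, which is 2 of 9 where 9.94% of genes were called lower. Neither passed with no filter on low counts (-0.28 and -0.33, edgeR adjusted p = 0.0586 and 0.0766). Pax5 and Blk were above it, which is 2 of 9 where 7.44% were called higher. Pax5 in responders ran from 5.53 to 6.45 on Day 4 (median 6.00) and from 6.14 to 6.61 on Day 24 (median 6.35), higher in 14 of 15 mice, with a log2 fold change of 0.33 ± 0.08 (SE, edgeR adjusted p = 0.00350). Blk was higher in 15 of 15 responders, at 0.24 ± 0.07 (SE, edgeR adjusted p = 0.0198). None of the 9 passed among the responders with 3-digit numbers alone. Of the other cell types, all 5 NK cell markers were lower than on Day 4 in both groups (medians -0.67 in non-responders and -0.64 in responders), as were 5 and 3 of 5 T cell markers and 5 and 3 of 5 platelet markers. Red cell markers were higher for 5 of 6 in non-responders (median 1.01), and for 4 of 6 without the library D24_7224 (median 0.41), and for 0 of 6 in responders. Neutrophil markers were higher for 4 of 8 in non-responders (median 0.46), and for 3 of 8 without D24_7224 (median 0.42). In responders 1 of the 8 was higher and 1 lower (median -0.29). In either direction, 54.5% of all genes in non-responders and 32.3% in responders had an unadjusted p below 0.05. The summed level of the NK cell markers went from a median of 41.1 CPM (22.2 to 78.1) on Day 4 to 26.9 (13.2 to 39.6) on Day 24 in non-responders and from 40.4 (30.5 to 72.7) to 25.5 (19.5 to 32.9) in responders. The part of these cell types in the Day 24 levels was not tested.

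In non-responders Pax5 was at -0.02 ± 0.06 (SE, edgeR adjusted p = 0.798) on Day 24, higher than on Day 4 in 15 of 29 mice and lower in 14. The signed log2 changes of the 9 genes from Day 4 to Day 24 were all higher in responders than in non-responders, as a smaller fall or a rise, with a median difference of 0.17 beside -0.01 over all genes. Of these 1 passed, Pax5, with a difference of 0.35 ± 0.10 (SE, edgeR adjusted p = 0.0357), where 1.67% of 13688 genes were called higher. Between the groups Pax5 was at -0.26 ± 0.08 (SE) on Day 4 and at 0.08 ± 0.08 (SE, edgeR adjusted p = 0.618) on Day 24. The haemoglobin share was 83.0% and 77.8% in responders and non-responders on Day 4, and 81.8% and 81.5% on Day 24. The part of the Day 4 levels and of this share in the difference was not tested. The Pax5 difference did not pass without the library D24_7224 (0.31, edgeR adjusted p = 0.0610) or with the mouse as a replicate block (0.36, edgeR adjusted p = 0.0522). Nor did it pass with no filter on low counts. Within the mice with 4-digit and 3-digit numbers the difference was 0.47 and 0.32, and it passed in neither. In the 4-digit series without D24_7224, an alternative chosen after seeing the data, it was 0.33 (edgeR adjusted p = 0.404), and 6 of the 9 differences were positive. All mice together, D24_7224 included, with the series and its interaction with day as covariates, gave 0.41 (edgeR adjusted p = 0.00693). That fit was not run without D24_7224. Of the 12 B lineage transcription factors on the fixed list 4 passed the test of the difference without covariates. The smallest p were those of Ikzf3, at 0.34 ± 0.08, and Pou2f2, at 0.31 ± 0.09 (SE). Without the library D24_7224, Ikzf3 passed (edgeR adjusted p = 0.0100) and Pou2f2, Bach2 and Bcl11a did not, at 0.29, 0.31 and 0.23 (edgeR adjusted p = 0.0610, 0.0542 and 0.0860).

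**Figure D2:**
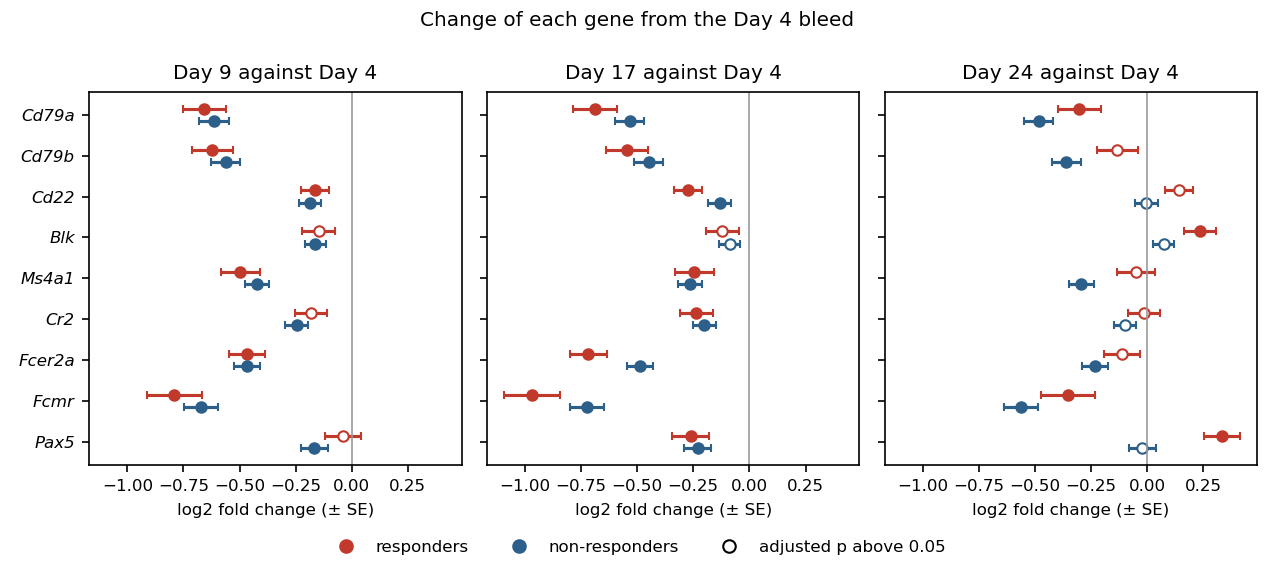
Log2 fold change of each gene from Day 4 (horizontal axis, ± SE) on Days 9, 17 and 24 in responders and non-responders, with open circles for an adjusted p above 0.05. The changes on Days 9 and 17 are largest for Fcmr in both groups and lie on the same side of 0 in both groups, and on Day 24 Pax5 and Blk of responders lie above 0.

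The next question was whether the 9 genes differ between responders and non-responders on a given day. The differences were small on each day. On Day 4, 1 of 9 was lower in responders, Pax5, where 1.01% of 12620 genes were called lower. In responders Pax5 lay at 5.53 to 6.45 with a median of 6.00, in non-responders at 5.53 to 6.70 with a median of 6.35, so that the groups overlapped, and the log2 fold change was -0.26 ± 0.08 (SE, edgeR adjusted p = 0.0321). It was -0.26 among mice with 4-digit numbers and -0.37 among mice with 3-digit numbers, and passed in neither series alone, where 0 of all 12216 and 0 of all 13396 genes passed. With no filter on low counts Pax5 did not pass. With the series as a covariate Pax5 (-0.29, edgeR adjusted p = 0.0321) and Cr2 (-0.19, edgeR adjusted p = 0.0401) were lower. Without that covariate the other 8 genes lay between -0.10 (Cd22) and 0.08 (Fcmr).

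The libraries of responders also held more red cell RNA at the start. Haemoglobin genes took 83.0% ± 4.12 (SD, n = 15) of the counts of the responders' Day 4 libraries against 77.8% ± 5.21 (SD, n = 29) for non-responders, and 82.7% ± 3.27 and 78.2% ± 3.69 (SD) on Day 9. Within the Day 4 non-responders the level of Pax5 followed this share, with r = -0.81. With the haemoglobin share as a covariate, an alternative chosen after seeing the data, Pax5 on Day 4 was at -0.06 (edgeR adjusted p = 0.852) and 0 of all 12620 genes were called. TPM, which counts haemoglobin in its total, gave a different reading. By two-sided Wilcoxon tests on TPM, 9 of 9 genes were lower in responders on Day 4 and on Day 9, with medians of -0.78 and -0.69, but the median of all genes was at -0.58 and -0.57, and 10594 of 12611 and 11231 of 12600 genes were called lower.

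On Day 9, 0 of the 9 genes passed, where 13.4% of 12608 genes were called in either direction. With all mice together all 9 were lower in responders, with a median of -0.10 beside -0.02 over all genes. At an unadjusted p below 0.05, 4 of the 9 passed (Ms4a1, Pax5, Cd22 and Blk) beside 25.1% of all genes, and DESeq2 called 0 of the 9 and 1670 genes in all. Ms4a1 came nearest, with a range of 5.62 to 6.23 around a median of 6.06 for responders against 5.92 to 6.45 around 6.17 for non-responders, with a log2 fold change of -0.14 ± 0.05 (SE, edgeR adjusted p = 0.0592). Within the 4-digit series mean Ms4a1 was 6.01 in responders and 6.22 in non-responders, and Fcer2a was higher in responders, at 5.28 against 5.24. Within the 3-digit series both were lower in responders, Ms4a1 at 6.03 against 6.15 and Fcer2a at 5.20 against 5.32. Leaving out each mouse in turn gave 0 to 2 genes, with 2 called without D9_306, D9_309, D9_310 or D9_327 and 1 without D9_315, D9_328, D9_7201, D9_7203 or D9_7210. Of 12 B lineage transcription factors 2 were lower in responders, as was 1 of 17 genes of B cell receptor signalling. Ebf1, the factor that acts upstream of Pax5, was lower by 0.23 ± 0.06 (SE, edgeR adjusted p = 0.0024). Of the inhibitory receptors and phosphatases 0 of 9 passed, and of the genes of survival, costimulation and homing 0 of 9.

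On Day 17, 2 of 9 were lower in responders, Cd22 and Pax5, where 1.19% of 12520 genes were called lower. In responders Cd22 lay at 5.62 to 6.32 with a median of 5.81, in non-responders at 5.69 to 6.51 with a median of 6.18, at -0.27 ± 0.07 (SE, edgeR adjusted p = 0.0342), and Pax5 from 5.30 to 6.22 (median 5.64) and from 5.59 to 6.43 (median 6.13), at -0.31 ± 0.08 (SE, edgeR adjusted p = 0.0281). These differences went along with the number series. Pax5 on Day 17 was at 5.61 and 5.77 in responders and non-responders with 4-digit numbers and at 6.08 and 6.16 in those with 3-digit numbers. Within the 4-digit series Pax5 was at -0.16 and Cd22 at -0.16, within the 3-digit series at -0.08 and -0.05, and with the series as a covariate at -0.12 (edgeR adjusted p = 0.442) and -0.10 (edgeR adjusted p = 0.519), so that neither passed.

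On Day 24 the 9 genes were all higher in responders, with a median of 0.10 beside -0.01 over all genes, and 0 passed, where 8.55% of 12469 genes were called in either direction. Without the library D24_7224, 7 of 9 were higher, with a median of 0.07, and Cd22 and Cr2 were at -0.0051 and -0.0043. At an unadjusted p below 0.05, 4 of the 9 passed (Fcmr, Cd79a, Cd79b and Ms4a1) beside 24.3% of all genes, and DESeq2 called 2 (Cd79a and Fcmr) and 2093 genes in all. Without the library D24_7224, 3 of 9 passed, where 12.6% of genes were called higher. Those were Cd79a (0.18, edgeR adjusted p = 0.0114), Cd79b (0.16, edgeR adjusted p = 0.0189) and Fcmr (0.24, edgeR adjusted p = 0.0094). In the same comparison 5 of 5 platelet markers were also higher in responders (median 0.53), whose part was not tested. Fcmr ran from 5.42 to 6.32 (median 5.77) in responders and, with D24_7224 at 3.90, up to 5.82 (median 5.66) in non-responders. Within the mice with 4-digit and 3-digit numbers Fcmr was at 0.40 and 0.18 and Cd79a at 0.35 and 0.12, and 0 genes passed in either. Without D24_7224 the values within the 4-digit series, computed after seeing the data, were 0.25 for Fcmr and 0.20 for Cd79a, and 0 of the 9 passed.

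**Figure D3:**
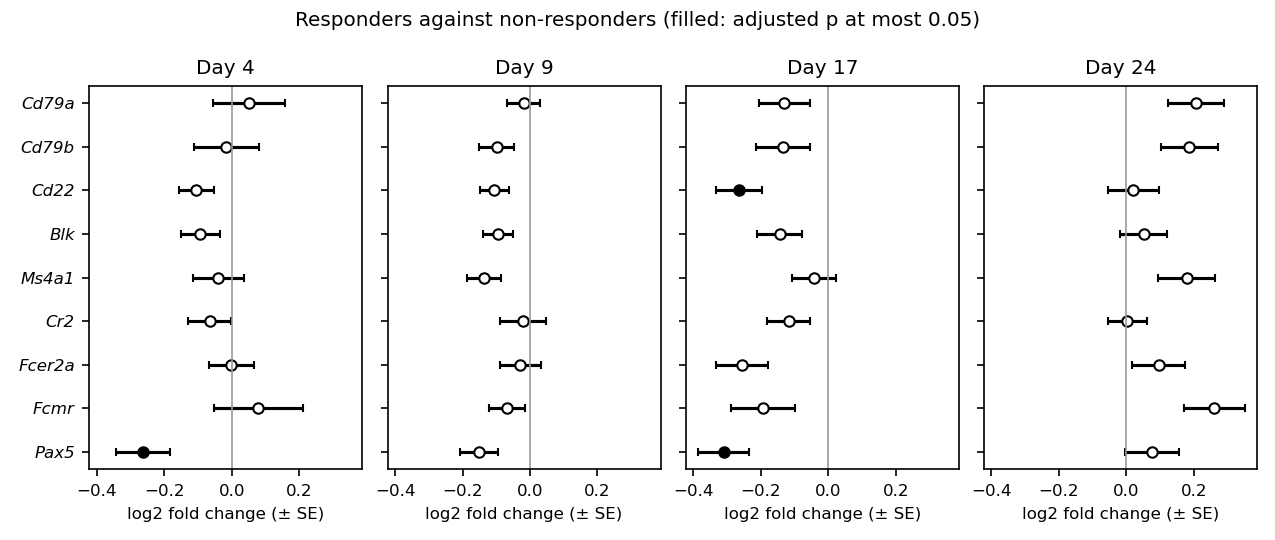
Log2 fold change of each gene between responders and non-responders (horizontal axis, ± SE) on each day, positive where responders were higher, with filled circles for an adjusted p of at most 0.05. Pax5 on Day 4 and Cd22 and Pax5 on Day 17 are filled, all below 0, and on Day 24 all 9 genes lie above 0 with none filled (7 of 9 above 0 and 3 called without the library D24_7224, which the plot includes).

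Pooled over all days, the 9 genes did not move as 1 block from library to library. Over 177 libraries, without D24_7224, the deviations from the means of the 8 response and day groups correlated by r = 0.93 between Cd79a and Cd79b and between Cd79a and Fcmr, and by 0.77 between Cd79a and Ms4a1. Cd22, Blk and Pax5 went together (r = 0.77 for Cd22 and Blk, 0.73 for Cd22 and Pax5). Between these sets the correlations were lower, at 0.15 for Fcmr and Pax5 and 0.21 for Cd79a and Pax5, and Cr2 was at 0.01 with Cd79a and at 0.50 with Cd22. These low values pool opposite signs. Cr2 with Cd79a was at -0.36 in responders and -0.59 in non-responders on Day 4 and at 0.12 to 0.46 in the 6 groups of the later days. Pax5 with Fcmr was at -0.62 and -0.52 on Day 4 and at 0.51 to 0.80 later. In the 6 later groups Pax5 was at 0.66 to 0.86 with Cd79b and at 0.65 to 0.89 with Cd22, ranges that overlap, and Cd79a was at 0.29 to 0.83 with Cd22, so that the sets separate in the Day 4 libraries and less so in the later ones. Fcer2a, at 0.75 with Cd79a and 0.67 with Cd22, stood between. These values describe libraries that come from 45 mice and share a scaling, and they carry no test. The set that went with Cd79a is also the set with the larger falls from Day 4 to Day 9.

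**Figure D4:**
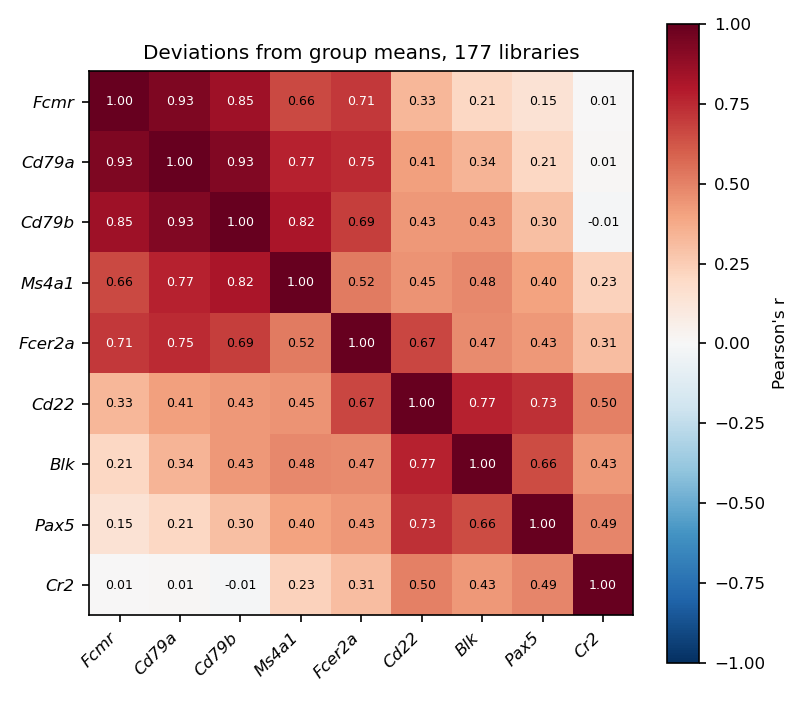
Pearson correlation of the deviations of each pair of genes from their response and day group means over 177 libraries. Fcmr, Cd79a, Cd79b, Ms4a1 and Fcer2a form a dark block at 0.52 to 0.93, Cd22, Blk and Pax5 a second one, and Cr2 is near 0 with Fcmr, Cd79a and Cd79b.

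The relation between Cd79a and Pax5 differed in sign between Day 4 and the later days. On Days 9, 17 and 24 libraries with more Cd79a also had more Pax5, with r between 0.72 and 0.81 in non-responders (Spearman's rho 0.75 to 0.78) and between 0.61 and 0.86 in responders (rho 0.69 to 0.86). On Day 4 the relation was the other way. It was r = -0.55 (rho = -0.58) in the 15 responders and r = -0.45 (rho = -0.30) in the 29 non-responders. Without the 2 libraries farthest from the median of Cd79a, r was -0.61 and -0.36. This pair was chosen after its values were seen, so the correlations are a description with no test.

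The Day 4 relation did not hold in all mice. It was -0.62 in the 11 responders and 0.82 in the 7 non-responders with 4-digit numbers, and -0.61 in the 22 non-responders with 3-digit numbers. On Day 4 both genes also went along with measures of the library. In non-responders Pax5 correlated by 0.86 with the log2 scaling factor, by 0.81 with the number of genes with a count and by -0.81 with the haemoglobin share, and Cd79a by -0.49, -0.56 and 0.37. In responders the values were 0.61, 0.58 and -0.52 for Pax5 and -0.64, -0.61 and 0.62 for Cd79a. On Day 9 the same correlations lay between -0.12 and 0.24 in non-responders and between -0.35 and 0.39 in responders. On Day 24 in non-responders both genes went the same way with the scaling factor (0.67 for Pax5 and 0.57 for Cd79a) and with the haemoglobin share (-0.64 and -0.49). In responders on Day 24 they went opposite ways with both measures (0.32 for Pax5 and -0.34 for Cd79a with the scaling factor, -0.29 and 0.26 with the haemoglobin share), while their own r was 0.61. On Day 17 the values with the scaling factor were 0.54 and 0.32 in responders and 0.26 and 0.16 in non-responders. The part of these measures in the Day 4 levels, and so in the changes from Day 4, was not tested for Cd79a beyond the haemoglobin share. With that share as a covariate Cd79a was at -0.61 (non-responders) and -0.64 (responders) on Day 9 against Day 4, where 9 and 7 of the 9 genes fell.

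**Figure D5:**
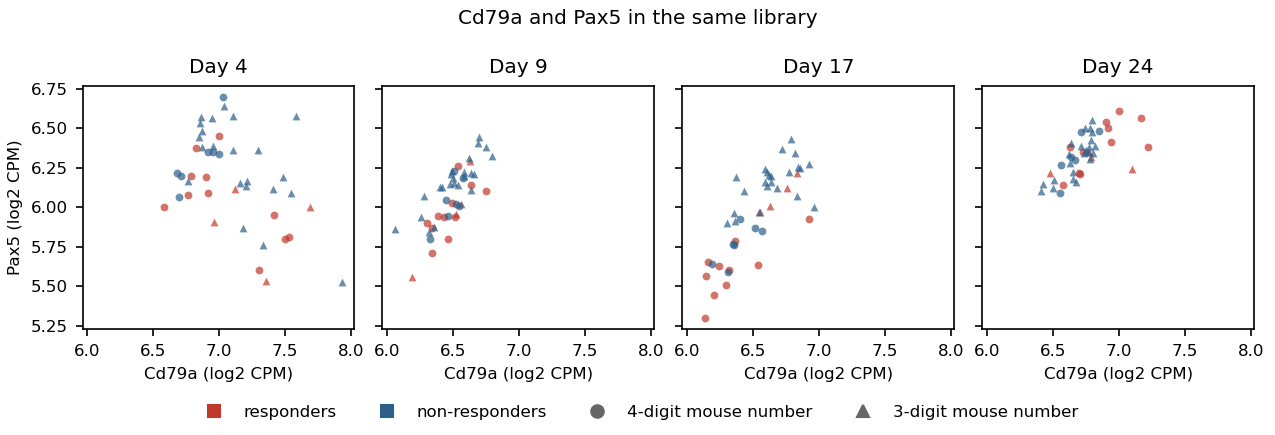
Pax5 (vertical axis, log2 CPM) against Cd79a (horizontal axis, log2 CPM) in the same library on each day, with color for response and shape for the number series, without the library D24_7224. The points rise from left to right on Days 9, 17 and 24, with r from 0.61 to 0.86 in the groups, and on Day 4 they spread to high Cd79a with lower Pax5 (r = -0.55 and -0.45).

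Among the 13688 genes tested, those whose deviations were most like the mean of the 9 genes over all 178 libraries were Bank1 (r = 0.93), H2-DMb2 (0.92), Gga2 (0.91), Fcrla (0.90) and Ighm (0.89), followed by Parp1, Blnk, Tnfrsf13c, Fcrl1, Cxcr5, Ighd, Ints4, Myo1e, Kmo and Hvcn1 (0.87 to 0.84). Bank1 and Blnk are adaptors of B cell receptor signalling, H2-DMb2 belongs to the chaperone that loads peptides on MHC class II, and Tnfrsf13c is the receptor for the survival factor BAFF. Of these 15 genes 7 were on the fixed B cell lists. Without the library D24_7224 the first 5 kept their order (Bank1 at 0.89, Ighm at 0.85), and Mef2c, H2-Eb1 and Igkc took the places of Ints4, Kmo and Hvcn1.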

How the data were processed

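RNA-seq of whole blood from 45 mice gave 178 libraries. The authors deposited estimated counts per gene, 3.143% of them not whole, and TPM per gene symbol. Their processing notes name STAR and mm10, and the counting tool is not given in the sources used here. All columns were mapped by title. The estimated counts were rounded, filtered (filterByExpr), scaled by TMM and tested with the quasi-likelihood test of edgeR 4.0.16 in R 4.3.3, with Benjamini-Hochberg adjustment over all genes and a threshold of 0.05. Log2 CPM used a prior count of 2 and 1 scaling over all libraries. Deposited TPM served for the order of genes and for Wilcoxon tests, an alternative with a pseudocount of 0.1. DESeq2 1.42.0 was another alternative. The alternatives also covered filters, a fold threshold, number series, single libraries and the mouse as replicate block, since libraries of 1 animal are paired across days (mean correlations of paired deviations lay between -0.06 and 0.13). The script was tested on simulated data, and for responders against non-responders on Day 9, with 12608 genes, it recovered 90.0% of 100 genes changed by a log2 of 0.585. For responders on Day 9 against Day 4, with 11736 genes, it recovered 81.0%. The named genes of the 16 lists were the 2 with the smallest p of each list in each comparison. The members and lists were chosen with earlier results of these data known.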

Additional observations from a re-analysis of the deposited data

Results flagged for a closer look

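Among the 9 genes and the genes of the fixed lists, 14 changed differently in responders and non-responders between Day 4 and Day 24 by the test of that difference (edgeR, adjusted p of at most 0.05), with positive values where the change was higher in responders. Over all 13688 genes 1.67% were called higher, and 18.4% had an unadjusted p below 0.05 in either direction. Of the lists, 4 of 12 B lineage transcription factors and 1 of 3 B-1 cell markers were called higher. Called lower were 4 of 6 red cell, 2 of 8 neutrophil, 1 of 6 monocyte and 1 of 4 transitional markers. In the lists of B cell receptor signalling, T cell, NK cell and platelet genes 0 were called. Pax5 differed by 0.35, and the B lineage transcription factors Ikzf3 by 0.34, Bach2 by 0.34, Pou2f2 by 0.31 and Bcl11a by 0.25. The largest positive difference was that of Bhlhe41, a factor of B-1 cells, at 0.77. The red cell genes Slc4a1, Alas2, Hbb-bs and Hbb-bt differed by -1.50, -1.27, -1.18 and -1.23, and Cd24a, which red cell precursors also carry, by -1.31. The myeloid genes Ccr2, S100a8 and S100a9 differed by -0.59, -0.88 and -0.81. When the library D24_7224 was left out, Ikzf3 (0.31, edgeR adjusted p = 0.0100) and Bhlhe41 (0.76, edgeR adjusted p = 0.0194) passed and the other 12 did not, with the red cell genes at -0.65, -0.63, -0.68 and -0.70 and Cd24a at -0.57. The others moved less, with S100a8, S100a9 and Ccr2 at -0.86, -0.79 and -0.55 and Pax5, Bach2, Pou2f2 and Bcl11a at 0.31, 0.31, 0.29 and 0.23. With the mouse as a replicate block 4 of the 14 passed, Bhlhe41 (edgeR adjusted p = 0.0065), Ikzf3 (0.0156), Pou2f2 (0.0215) and Bach2 (0.0403), and the other 10 did not, with Slc4a1, Alas2, Hbb-bs and Hbb-bt at -0.77, -0.80, -0.86 and -0.88 and Cd24a at -0.74.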

How the results depend on the processing

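The alternatives were also counted by single genes, apart from leaving out 1 mouse at a time, the fold threshold and the one-tailed Wilcoxon test. Of these 1269 values, 1164 kept their direction where called and their side of the threshold, 41 gained and 59 lost a call, and 5 reversed. With a fold change of at least 1.5 required, the counts of the 9 genes called fell to 0 in responders against non-responders on Days 4 and 17, to 3 in responders on Days 9 and 17 against Day 4 and 0 on Day 24, and to 2, 1 and 0 in non-responders on these days. They also fell to 0 for Day 17 against Day 9 in non-responders and for the difference of changes on Day 24. With no filter on low counts the counts were 0 on Day 4, 2 for responders on Day 24 against Day 4 (Pax5 and Blk, both higher), and 0 for the difference on Day 24. Mice with 4-digit numbers alone gave 0 on Days 4 and 17 between the groups, where 0 of all 12216 and 0 of all 12089 genes passed, and 0 for the difference on Day 24. In non-responders they gave 0, 5 and 0 on Days 9, 17 and 24 against Day 4 and 0 on Day 17 against Day 9, and in responders 2 on Day 24 against Day 4 and 3 on Day 17 against Day 9. Mice with 3-digit numbers alone gave 0 on Days 4 and 17 between the groups (0 of all 13396 and 1 of all 13224 genes), 0 for responders on Days 17 and 24 against Day 4, 3 for non-responders on Day 17 against Day 9 and 0 for the difference on Day 24. There Cd22, Cr2 and Pax5 of responders on Day 17 reversed, to 0.037, 0.084 and 0.17. Both subsets hold fewer mice, and the part of the series itself was not tested.

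The two-sided Wilcoxon test on TPM called 9 on Days 4 and 9 and 0 on Day 17, with Cd79a and Fcmr on Day 4 reversed to -0.73 and -0.70, and the one-tailed test 0 on Days 4 and 17. The number series as a covariate gave 2 on Day 4 and 0 on Day 17. DESeq2 gave 2 on Day 24 between the groups and 2 for responders on Day 17 against Day 9. Leaving out the library D24_7224 gave 3 on Day 24 between the groups and 0 for the difference, and with mice with 4-digit numbers alone, added after seeing the data, 0 for the difference. The haemoglobin share as a covariate, added after seeing the data, gave 0 on Day 4, 1 on Day 24 and 2 for responders on Day 17 against Day 9. Leaving out 1 mouse at a time gave 0 to 2 on Day 9. With the mouse as replicate block, which pairs the libraries of an animal, the count was 1 for responders on Day 17 against Day 9 and 0 for the difference on Day 24, and no other count moved by over 1.5 times. The cause was not tested in any of these cases.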
